A study of Homo sapiens with 21 samples.

Results

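The genes of the Hedgehog pathway were followed across 21 RNA sequencing libraries of A673, a human Ewing sarcoma cell line that carries the fusion gene EWS/FLI. They are the 9 genes GLI1, GLI2, GLI3, PTCH1, SMO, SUFU, HHIP, BOC and GAS1, taken by symbol from a table of 57820 genes. All 9 were in the table, and all 9 passed the filter on low values. Every library came from cells given stable RNA interference, 4 days of selection and a retroviral hygromycin vector. The delta 22 libraries (n = 4, batches 1 to 4), the mut9 libraries (n = 3, batches 3 to 5) and the wild-type libraries (n = 5, batches 1 to 5) had RNA interference against EWS/FLI and a vector with the named version of the fusion. The wild-type construct is type IV EWS/FLI, and the labels name the delta 22 and mut9 mutants without describing them. The knockdown libraries (n = 5, batches 1 to 5) had the same interference and an empty vector. The control libraries (n = 4, batches 1, 2, 3 and 5) had interference against luciferase and the empty vector. The labels do not say that replicates came from separate cultures, so p-values measure the spread between these libraries, which may be technical, in 1 cell line.

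Hedgehog ligands bind the receptor PTCH1 at the cell surface, helped by co-receptors such as BOC and GAS1. Binding releases SMO, which moves into the primary cilium and frees the GLI transcription factors from the inhibitor SUFU. PTCH1, HHIP and GLI1 are themselves target genes of the pathway and are widely used as its readouts, and in Ewing sarcoma GLI1 has also been described as a direct target of EWS/FLI.

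The start of PTCH1 is shown because it holds the letters of the binding motif of the GLI factors. The stretch below is the first 250 bases of the RefSeq promoter window at chr9:95509267-95509516 (GRCh38.p14, minus strand), a build other than the hg19 assembly to which the reads were aligned. Capitals mark the motif GACCACCCA, which lay on the other strand, 172 bases before the start.
PTCH1: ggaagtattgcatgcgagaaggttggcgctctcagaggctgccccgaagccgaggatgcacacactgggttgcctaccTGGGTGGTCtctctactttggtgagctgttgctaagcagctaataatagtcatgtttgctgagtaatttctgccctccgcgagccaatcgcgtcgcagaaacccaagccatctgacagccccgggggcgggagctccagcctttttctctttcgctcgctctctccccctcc
The motif, searched on both strands, was in 83 of 35116 promoter windows (0.236%) and in 1 of 13 windows of the members, which covered 7 of the 9 genes. The paired repeat GGAAGGAA was in 1290 windows (3.67%) and in 0 of the 13. A match in these letters is a description of the sequence only.

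Values are log2 of normalized expression, differences are in log2 units with their SE, and a difference is called when its adjusted p (limma, Benjamini-Hochberg over 18040 genes tested) is below 0.05. Between 16708 and 17326 genes per library reached the floor of log2(10), taken as measured. FLI1, the measured end of the fusion, averaged 9.77 ± 0.16 in knockdown libraries and 11.64 ± 0.06 in control libraries (SD, n = 5 and 4), and the groups did not overlap. It averaged 11.27 ± 0.23 in delta 22 libraries (n = 4), 10.23 ± 0.15 in mut9 libraries (n = 3) and 10.47 ± 0.13 in wild-type libraries (n = 5). FLI1 reads cannot be divided between fusion, intact gene and construct. Of 6 Ewing sarcoma markers, 5 reached the floor in every library and CD99 was listed at 0 in all. Their summed linear level was 2452 to 4354 in delta 22, 32850 to 40270 in mut9, 26590 to 39240 in wild-type, 2993 to 7052 in knockdown and 33470 to 34740 in control libraries. The sum of 3 endothelial markers was 1610 to 2387 in delta 22, 338.1 to 392.6 in mut9, 213.5 to 454.1 in wild-type, 452.3 to 1224 in knockdown and 44.52 to 79.48 in control libraries, carried by KDR, with TEK below the floor in all. Immune markers summed to 58.63 to 148.8 in delta 22, 104.1 to 129.9 in mut9, 31.72 to 42.39 in wild-type, 54.97 to 112.9 in knockdown and 23.45 to 34.71 in control libraries, with CD3E below the floor. Of the epithelial markers, EPCAM and CDH1 were below the floor, and the sum, carried by KRT18, was 7444 to 12750 in delta 22, 10920 to 12910 in mut9, 5864 to 9293 in wild-type, 6979 to 10170 in knockdown and 6112 to 9254 in control libraries. The part of these differences in the results below was not tested.

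**Figure D1:**
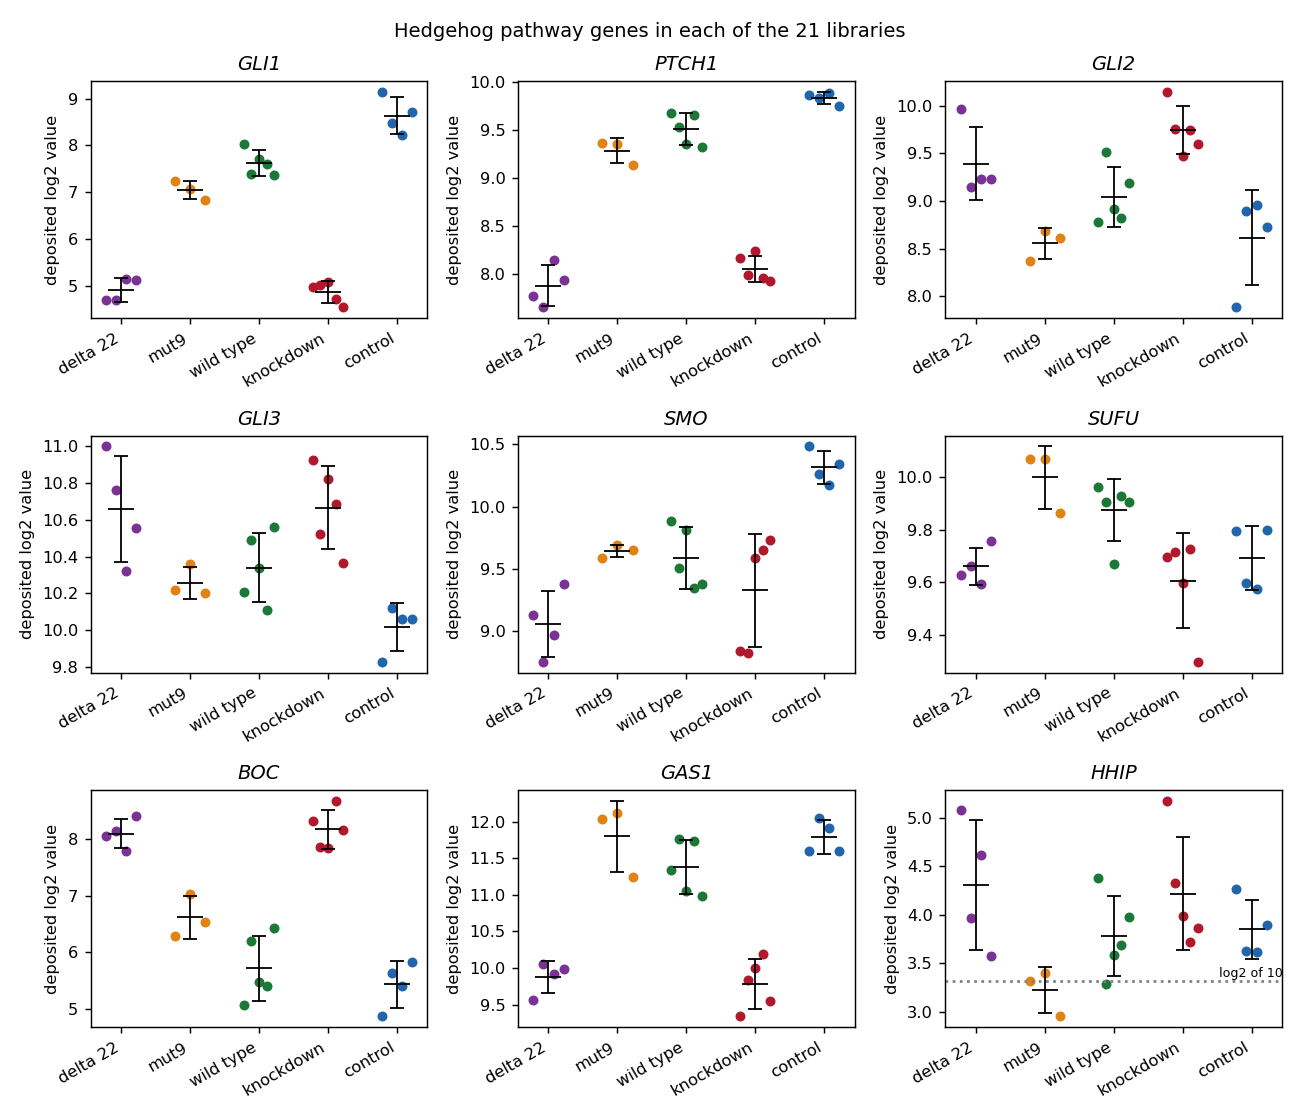
Log2 values of the 9 members in every library, 1 panel per gene, with a point per library, the group mean with its SD, and groups ordered delta 22, mut9, wild type, knockdown and control. GLI1 lay between 4.54 and 5.15 in delta 22 and knockdown libraries and between 6.84 and 9.15 in the other libraries; BOC ran the other way.

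Knockdown of EWS/FLI moved the Hedgehog genes in both directions. GLI1, PTCH1, SMO and GAS1 fell, BOC, GLI2 and GLI3 rose, and SUFU and HHIP were not called. That made 7 of 9 members called, where 69.5% of all tested genes were called (35.5% higher, 34% lower), so the share is near the background. The 7 called members had groups that did not overlap, as did 59.4% of all genes. The median size of the 9 differences was 1.13, against 0.50 over all genes. In bulk RNA, fewer cells with a gene on and less RNA per cell cannot be told apart.

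The receptor PTCH1 had 8.16, 7.98, 8.24, 7.96 and 7.93 in knockdown libraries, against 9.87, 9.84, 9.89 and 9.75 in control libraries. Every knockdown library was below every control library by a wide margin. PTCH1 fell by 1.78 ± 0.11 (SE), or 3.44-fold, with a limma adjusted p of 2.17e-11, and the within-batch differences ran between -1.85 and -1.65 in 4 of 4 batches. Of its exon bases, 645 (6.55%) overlap AL161729.1 on the opposite strand, and whether counting used strand is not given in the sources used here.

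The co-receptors moved in opposite directions. BOC, which binds Hedgehog ligands and presents them to PTCH1, had 8.32, 7.85, 7.85, 8.68 and 8.17 in knockdown libraries, against 4.87, 5.63, 5.41 and 5.83 in control libraries. GAS1, a membrane-anchored protein that also helps ligand to bind, had 9.34, 9.83, 10.003, 10.19 and 9.55 in knockdown libraries, against 11.61, 12.06, 11.92 and 11.60 in control libraries. Neither pair of groups overlapped. BOC rose by 2.74 ± 0.26 (6.68-fold, limma adjusted p = 1.89e-08), with within-batch differences of 2.23 to 3.45. GAS1 fell by 2.01 ± 0.21 (4.03-fold, limma adjusted p = 4.34e-08), with within-batch differences between -2.27 and -1.92.

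SMO, the transducer across the membrane, had 8.84, 8.82, 9.59, 9.65 and 9.73 in knockdown libraries, against 10.49, 10.26, 10.17 and 10.35 in control libraries. All knockdown libraries were below all controls, but those of batches 1 and 2 lay lower than those of batches 3 to 5. SMO fell by 0.99 ± 0.18 (1.98-fold, limma adjusted p = 7.18e-05). Within batches the difference was -1.64 and -1.44 in batches 1 and 2, and -0.58 and -0.61 in batches 3 and 5. With batches 3 to 5 only, an alternative added after the values were seen, it was -0.60 (limma adjusted p = 0.0059).

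SUFU, which holds GLI proteins inactive, had 9.69, 9.72, 9.60, 9.73 and 9.299 in knockdown libraries, against 9.79, 9.60, 9.57 and 9.80 in control libraries. The groups overlapped, and the difference of -0.08 ± 0.09 was not called (95% interval -0.27 to 0.10, limma adjusted p = 0.416). Under quantile scaling it was -0.27 and passed (limma adjusted p = 0.0149). That scaling moved the median of all genes by -0.20 and the share of higher calls to 38%, against 51.1% without it.

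The 3 GLI factors did not move together. GLI1, an activator and the pathway's usual readout, had 4.99, 5.02, 5.08, 4.72 and 4.54 in knockdown libraries, against 9.15, 8.48, 8.22 and 8.71 in control libraries. This was the widest gap among the members. GLI1 fell by 3.77 ± 0.19 (13.6-fold, limma adjusted p = 1.72e-12). Within batches the differences ran between -4.17 and -3.14. An exact 2-sided permutation test gave p = 0.0159, the smallest that 5 against 4 libraries allow (0.0278 adjusted over 7 comparisons).

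GLI2, the main activator downstream of SMO in mammals, had 10.15, 9.76, 9.48, 9.75 and 9.60 in knockdown libraries, against 7.88, 8.90, 8.95 and 8.73 in control libraries. The groups were apart, with control replicate 1 about a log2 unit below the other controls. GLI2 rose by 1.13 ± 0.21 (2.19-fold, limma adjusted p = 9.72e-05), and the within-batch differences were 2.27 in batch 1, 0.86 in batch 2, 0.52 in batch 3 and 0.87 in batch 5. GLI3, known mostly as the repressor of the family, had 10.92, 10.53, 10.82, 10.69 and 10.36 in knockdown libraries, against 9.83, 10.12, 10.06 and 10.06 in control libraries. It rose by 0.65 ± 0.13 (1.56-fold, limma adjusted p = 0.000179), with all knockdown libraries above all controls.

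HHIP, a decoy that binds Hedgehog ligands at the cell surface, was close to the floor. It had 5.17, 4.33, 3.99, 3.72 and 3.86 in knockdown libraries, against 4.27, 3.63, 3.62 and 3.89 in control libraries. The groups overlapped, and the difference of 0.36 ± 0.31 was not called (95% interval -0.27 to 1.00, limma adjusted p = 0.297). HHIP reached the floor in 4 of 4 delta 22, 1 of 3 mut9, 4 of 5 wild-type, 5 of 5 knockdown and 4 of 4 control libraries, so with a mean of 3.22 it counts as not measured in mut9 libraries.

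**Figure D2:**
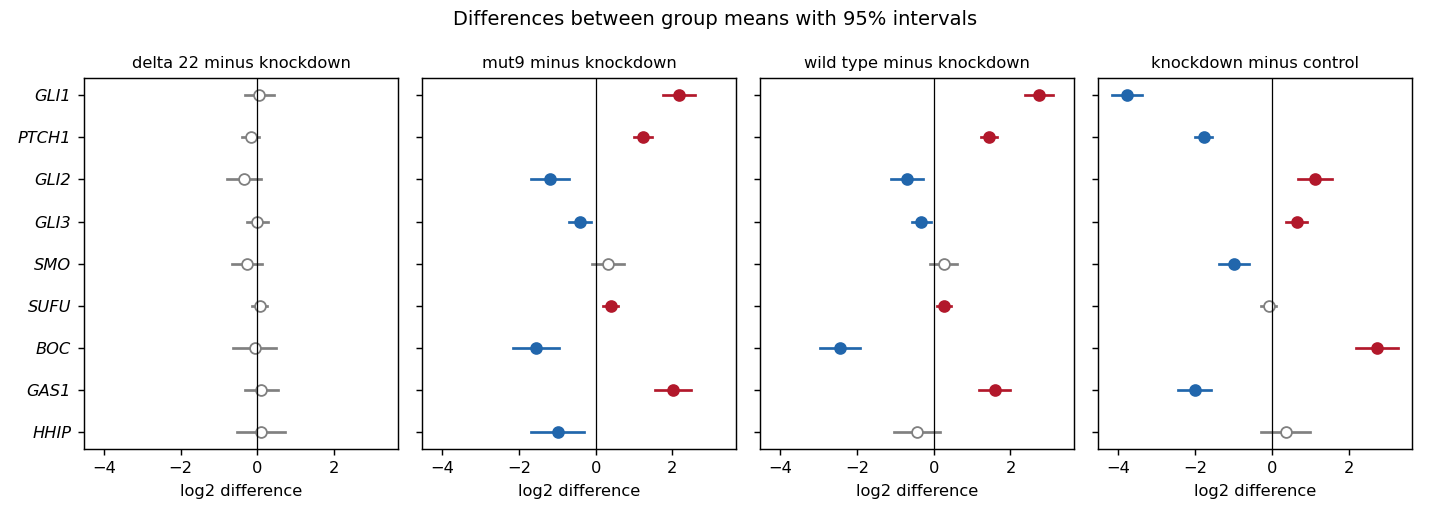
Log2 differences of the 9 members in delta 22, mut9 and wild type against knockdown and in knockdown against control, with lines for 95% intervals of the limma fit, red for called higher, blue for called lower and open grey for not called. GLI1 was at -3.77 in knockdown against control and at 2.76 in wild type against knockdown, while all 9 intervals of delta 22 against knockdown included 0.

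Return of wild-type EWS/FLI moved 7 of the 9 members, 4 up and 3 down, where 61.8% of all genes were called (29.6% higher, 32.3% lower). Groups did not overlap for 4 members and for 42.5% of all genes. The comparison shares its knockdown libraries with the one above, so the values of each are given on their own and their opposite signs are not read as independent. GLI1 had 8.04, 7.40, 7.71, 7.61 and 7.37 in wild-type libraries, against the knockdown values above. Every wild-type library was above every knockdown library, and GLI1 rose by 2.76 ± 0.17 (6.76-fold, limma adjusted p = 1.43e-10; exact permutation p = 0.00794, the smallest possible). PTCH1 had 9.68, 9.53, 9.35, 9.65 and 9.32 in wild-type libraries, all above the knockdown libraries. It rose by 1.45 ± 0.10 (2.74-fold, limma adjusted p = 3.74e-10). GAS1 had 11.34, 11.77, 11.06, 11.74 and 10.99 in wild-type libraries and rose by 1.60 ± 0.19 (limma adjusted p = 7.3e-07). BOC had 5.07, 6.20, 5.48, 5.41 and 6.44 in wild-type libraries and fell by 2.45 ± 0.25 (5.48-fold, limma adjusted p = 6.75e-08). Neither gene's wild-type libraries overlapped its knockdown libraries.

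The other members changed less. GLI2 had 8.77, 9.52, 8.91, 8.82 and 9.19 in wild-type libraries, which overlapped the knockdown range at 1 library. It fell by 0.70 ± 0.20 (limma adjusted p = 0.00507). SUFU rose by 0.27 ± 0.08 (limma adjusted p = 0.0102), with 9.67 to 9.96 in wild-type libraries and 9.299 to 9.73 in knockdown libraries, and the call was lost with batches 3 to 5 only (limma adjusted p = 0.0774). GLI3 fell by 0.32 ± 0.12 (limma adjusted p = 0.027), with overlapping groups. That GLI3 call was lost without a filter (limma adjusted p = 0.052), under quantile scaling (0.138), with batches 3 to 5 only (0.099), and without knockdown replicate 1 (0.0815), knockdown replicate 3 (0.0673), wild-type replicate 1 (0.0634) or wild-type replicate 4 (0.0792). SMO, at 9.88, 9.503, 9.82, 9.34 and 9.38 in wild-type libraries, was not called (0.26 ± 0.17, limma adjusted p = 0.199). Within batches its difference was 1.04, 0.68 and 0.23 in batches 1, 2 and 3, and -0.31 and -0.35 in batches 4 and 5, and under quantile scaling the pooled value was 0.41 (limma adjusted p = 0.0465). HHIP was not called either (-0.43 ± 0.29, limma adjusted p = 0.199).

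**Figure D3:**
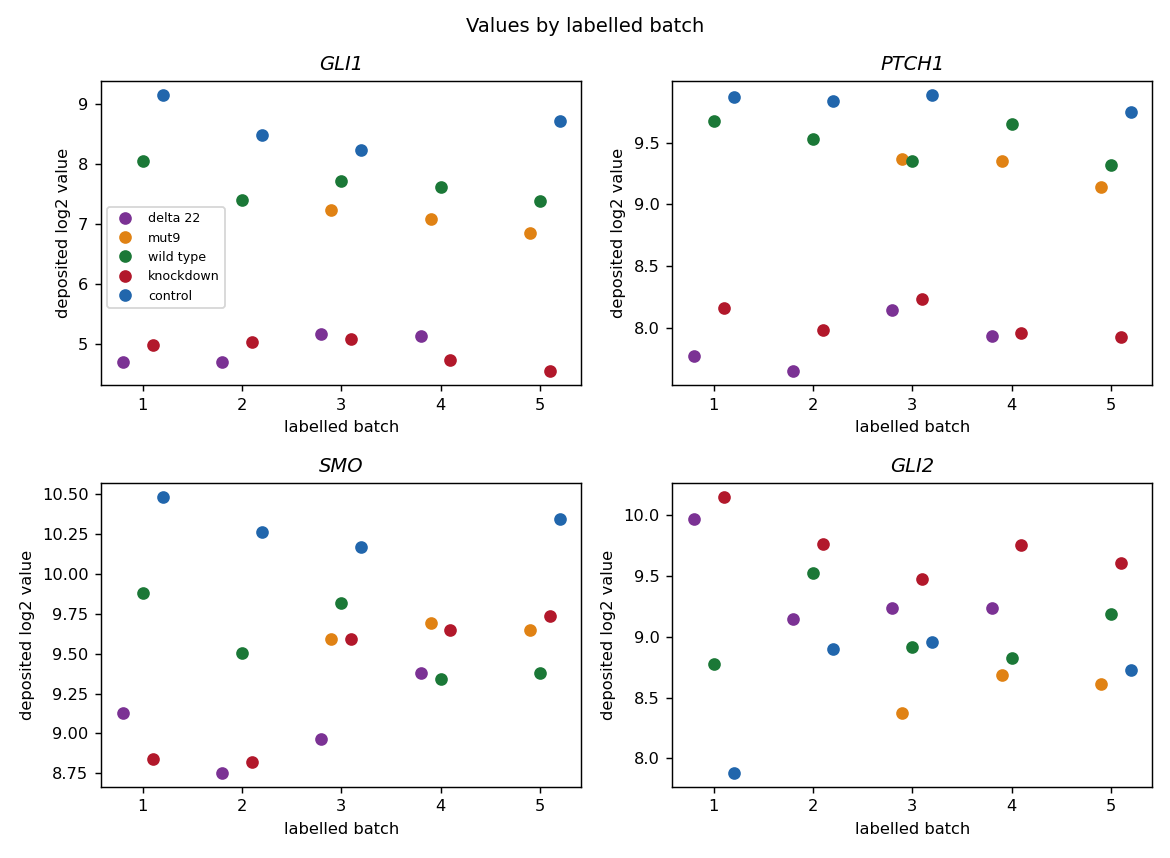
Log2 values of GLI1, PTCH1, SMO and GLI2 (y axes) by labelled batch (x axes), a point per library coloured by group. SMO in knockdown libraries was at 8.84 and 8.82 in batches 1 and 2 and at 9.59 to 9.73 in batches 3 to 5, while GLI1 in control libraries stayed at 8.22 or above in all 4 of their batches.

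Wild-type rescue was also set against control RNA interference. Of the 9 members, 3 were lower and 0 higher, where 39.6% of all genes were called (18.3% lower, 21.3% higher). The same 3 did not overlap, as did 31.2% of all genes. GLI1 averaged 7.63 ± 0.27 in wild-type libraries and 8.64 ± 0.39 in control libraries (SD, n = 5 and 4) and did not overlap. It was lower by 1.01 (difference -1.01 ± 0.19, 2.02-fold, limma adjusted p = 0.000285). SMO was also lower (-0.73 ± 0.18, 1.66-fold, limma adjusted p = 0.00355). PTCH1 was lower by a smaller step (-0.33 ± 0.11, 1.26-fold, limma adjusted p = 0.0185), with 9.32 to 9.68 in wild-type libraries and 9.75 to 9.89 in control libraries. The PTCH1 call was lost without wild-type replicate 5 (limma adjusted p = 0.0536) and with batches 3 to 5 only (0.0805). GAS1 differed by -0.42 ± 0.21 and was not called (limma adjusted p = 0.117), but with the labelled batch as a block it differed by -0.50 and passed (limma adjusted p = 0.00326), as it did with array weights (-0.48, 0.0364). BOC differed by 0.29 ± 0.26, with a 95% interval of -0.27 to 0.84 (limma adjusted p = 0.412). GLI2 differed by 0.43 ± 0.21 (limma adjusted p = 0.121), and GLI3 by 0.32 ± 0.13 (limma adjusted p = 0.0544). GLI3 passed the threshold with a mean of at least 100 (limma adjusted p = 0.0478) and with the compared groups only (0.0353). It also passed without wild-type replicate 1 (0.048) or 4 (0.0315). SUFU, at 0.18 ± 0.09, passed without wild-type replicate 3 (0.0496) and with array weights (0.26, limma adjusted p = 0.00788).

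No Hedgehog gene was called between delta 22 and knockdown libraries. In delta 22 against knockdown libraries 0 of 9 members were called by limma, in the fit and in every alternative run, where 4.5% of all genes were called (2.24% higher, 2.26% lower). Of the 9, 0 had an unadjusted p under 0.05, and 0 had groups that did not overlap, beside 8.36% of all genes. The counts of 0 called and 0 not overlapping are near these shares and are no result about the members. GLI1 had 4.70, 4.70, 5.15 and 5.12 in delta 22 libraries, inside or next to the knockdown range of 4.54 to 5.08. The difference was 0.05 ± 0.19, with a 95% interval of -0.34 to 0.44 (limma adjusted p = 0.92; exact permutation p = 0.73). PTCH1 had 7.77, 7.65, 8.15 and 7.93 in delta 22 libraries and differed by -0.18 ± 0.11 (95% interval -0.40 to 0.04, limma adjusted p = 0.382). BOC had 8.06, 8.14, 7.79 and 8.40 in delta 22 libraries and differed by -0.08 ± 0.26 (95% interval -0.63 to 0.47). GAS1 had 9.56, 10.05, 9.91 and 9.99 in delta 22 libraries and differed by 0.09 ± 0.21 (95% interval -0.34 to 0.52). Each of these overlapped its knockdown libraries. The widest interval among the 9 was that of HHIP, from -0.54 to 0.73, and that of GLI2 ran from -0.80 to 0.09.

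FLI1 itself was higher in delta 22 libraries than in knockdown libraries by 1.51 ± 0.10 (limma adjusted p = 5.18e-08). It was also higher in delta 22 than in wild-type libraries, by 0.80 ± 0.10 (limma adjusted p = 9.63e-07). The part of the FLI1 level in the GLI1 values was not tested.

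Set against wild type, delta 22 libraries had 2 members higher and 5 lower, where 61.2% of all genes were called (31.7% higher, 29.5% lower). GLI1 was lower (-2.71 ± 0.19, 6.53-fold, limma adjusted p = 3.8e-10), as were PTCH1 (-1.63 ± 0.11, 3.10-fold, limma adjusted p = 2.13e-10) and GAS1 (-1.50 ± 0.21, 2.83-fold, limma adjusted p = 3.43e-06). BOC was higher (2.38 ± 0.26, 5.20-fold, limma adjusted p = 2.41e-07). These 4 genes did not overlap between the groups, as did 47.3% of all genes. SMO had 9.13, 8.75, 8.97 and 9.38 in delta 22 libraries and was lower by a smaller step (-0.53 ± 0.18, limma adjusted p = 0.0164), a call that was lost without delta 22 replicate 2 (0.0679) and with batches 3 to 5 only (0.0932). GLI3 was higher (0.32 ± 0.13, limma adjusted p = 0.0393) and SUFU lower (-0.21 ± 0.09, limma adjusted p = 0.0464), each with overlapping groups. The GLI3 call was lost without delta 22 replicate 1 (0.179) or 2 (0.1) or wild-type replicate 1 (0.0832), 3 (0.0572) or 4 (0.102). The SUFU call was lost without delta 22 replicate 1 (0.0909), 2 (0.078) or 3 (0.108) or wild-type replicate 1 (0.0945), 2 (0.0763), 4 (0.0849) or 5 (0.0754). With the batch as a block GLI3 missed the threshold (0.31, limma adjusted p = 0.0617) and HHIP passed it (0.50, limma adjusted p = 0.0459), as it did without delta 22 replicate 4 (0.0397).

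GLI1, PTCH1, GAS1 and SUFU were higher, and BOC and GLI2 lower, in mut9 than in knockdown libraries under every alternative that gave them a value. In mut9 against knockdown libraries 4 members were higher and 4 lower, where 48.6% of all genes were called (23% higher, 25.5% lower), and 8 of 9 did not overlap, as did 46.9% of all genes. The 4 lower ones include HHIP, which counts as not measured in mut9 libraries. GLI1 had 7.23, 7.07 and 6.84 in mut9 libraries and rose by 2.18 ± 0.20 (4.53-fold, limma adjusted p = 5.81e-08; exact permutation p = 0.0357, the smallest that 3 against 5 allow). PTCH1 had 9.36, 9.35 and 9.14 in mut9 libraries and rose by 1.23 ± 0.12 (2.35-fold, limma adjusted p = 6.6e-08). GAS1 had 12.04, 12.12 and 11.24 in mut9 libraries and rose by 2.02 ± 0.22 (4.05-fold, limma adjusted p = 5.53e-07). All 3 genes were above every knockdown library. SUFU had 10.07, 10.07 and 9.86 in mut9 libraries and rose by 0.39 ± 0.10 (limma adjusted p = 0.00265).

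BOC had 6.29, 7.03 and 6.54 in mut9 libraries and fell by 1.55 ± 0.29 (2.94-fold, limma adjusted p = 0.00018). GLI2 had 8.37, 8.68 and 8.61 in mut9 libraries and fell by 1.19 ± 0.23 (2.28-fold, limma adjusted p = 0.000309). Both were below every knockdown library. GLI3 fell by 0.41 ± 0.14 (limma adjusted p = 0.0224), with 10.22, 10.36 and 10.20 in mut9 libraries, but missed the threshold with the batch as a block (-0.36, limma adjusted p = 0.0621) and without knockdown replicate 1 (0.0576), mut9 replicate 3 (0.0707) or mut9 replicate 5 (0.0744). HHIP, at 3.32, 3.40 and 2.95 in mut9 libraries and so around the floor, differed by -0.99 ± 0.33 (limma adjusted p = 0.0182), a size that is bound to that floor. Its call was lost without mut9 replicate 5 (limma adjusted p = 0.0813) and with batches 3 to 5 only (0.0603). SMO, at 9.59, 9.69 and 9.65 in mut9 libraries, was not called (0.32 ± 0.20, limma adjusted p = 0.199). Within batches 3, 4 and 5 its difference was -0.0017, 0.0426 and -0.0858. The pooled value also takes in the knockdown libraries of batches 1 and 2, at 8.84 and 8.82, where mut9 has no library.

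The mut9 and wild-type libraries were also compared directly. In mut9 against wild-type libraries 1 of 9 members was called higher and 0 lower, where 18.8% of all genes were called (11.2% higher, 7.61% lower). BOC was higher in mut9 libraries (0.90 ± 0.29, 1.87-fold, limma adjusted p = 0.0341), with 1 mut9 library inside the wild-type range. That call was lost without a filter (limma adjusted p = 0.057), under quantile scaling (0.0518), with the compared groups alone (0.0962) and with batches 3 to 5 only (0.118), and without mut9 replicate 4 (0.184) or 5 (0.0684) or wild-type replicate 1 (0.0832), 3 (0.0582) or 4 (0.0677). GLI1 was lower in every mut9 library than in every wild-type library, as was GLI2, and 23.8% of all genes did not overlap in this comparison. Its difference of -0.58 ± 0.20 (95% interval -0.999 to -0.16) missed the threshold (limma adjusted p = 0.0513), passed it under quantile scaling (-0.74, limma adjusted p = 0.0135), trimmed mean centring (0.0476) and array weights (0.0259), and without wild-type replicate 2 (0.0478) or 5 (0.0434). The exact permutation p was 0.0357, the smallest possible, or 0.0417 adjusted over the 7 comparisons. Within batches GLI1 differed by -0.54 to -0.48 in 3 of 3 batches. GAS1 differed by 0.42 ± 0.22 (limma adjusted p = 0.205), and with the batch as a block by 0.41, which passed (limma adjusted p = 0.0365), as it did without mut9 replicate 5 (0.70, adjusted p = 0.0452). PTCH1 differed by -0.22 ± 0.12, with a 95% interval of -0.46 to 0.02 (limma adjusted p = 0.195).

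**Figure D4:**
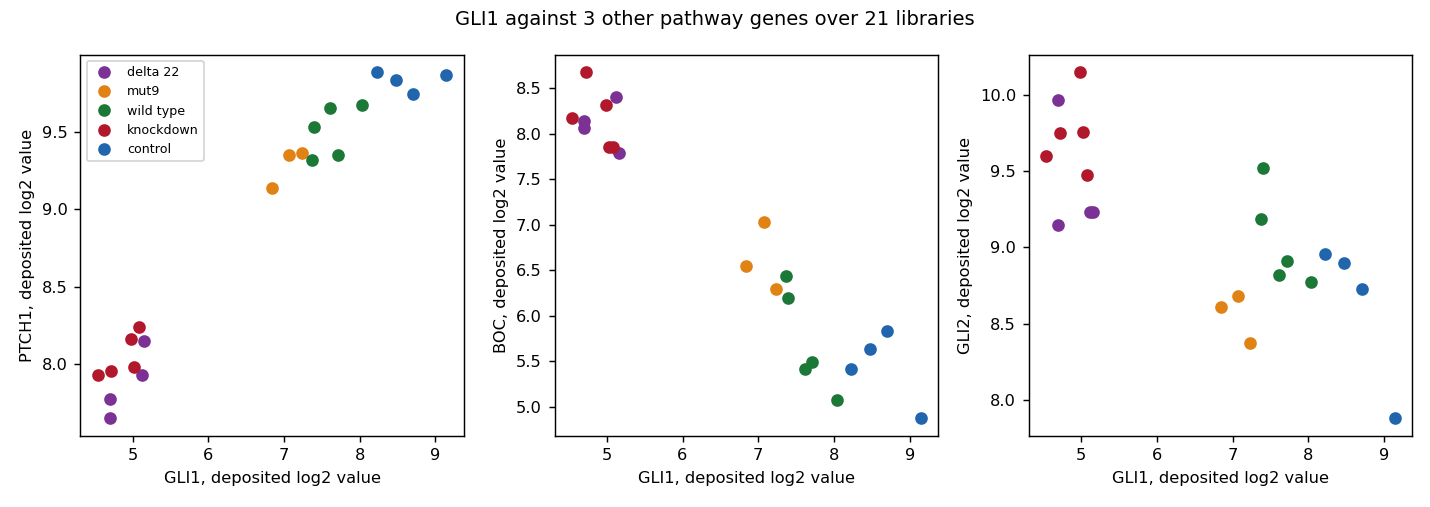
Log2 value of GLI1 in each of the 21 libraries (x axis) against log2 values of PTCH1, BOC and GLI2 (y axes), coloured by group. The delta 22 and knockdown libraries lie together at GLI1 of 4.54 to 5.15, and the mut9, wild-type and control libraries lie apart from them at 6.84 to 9.15.

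The order of GLI1 levels was control, wild type, mut9, delta 22, knockdown, with means of 4.92 in delta 22, 7.05 in mut9, 7.63 in wild-type, 4.87 in knockdown and 8.64 in control libraries. Control and wild type differed, as did mut9 and delta 22 (2.13 ± 0.21, limma adjusted p = 1.34e-07), while the differences of mut9 from wild type and of delta 22 from knockdown did not pass the threshold. BOC was ordered knockdown, delta 22, mut9, wild type, control. Only the step between mut9 and delta 22 (-1.48 ± 0.30, limma adjusted p = 0.000452) and that between mut9 and wild type passed. GAS1 was highest in mut9 and control libraries, at means of 11.80 and 11.79, which differed by 0.01 ± 0.23 (95% interval -0.48 to 0.50).

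Levels of different genes were compared as linear value per kilobase of exon. GAS1 was the highest member in knockdown libraries at 311.8 per kilobase and in control libraries at 1257. SMO was at 171.9 per kilobase in knockdown and 340.9 in control libraries. Among the GLI factors the order differed between groups. In knockdown libraries GLI3 was at 177.5, GLI2 at 126.3 and GLI1 at 8.09 per kilobase, whereas in control libraries GLI3 was at 113.4, GLI1 at 110.1 and GLI2 at 57.7. HHIP was lowest in all groups, at 1.77 per kilobase in knockdown and 1.37 in control libraries.

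Genes with the pattern most like each member were found by Pearson r of log2 values over the 21 libraries, which share groups and batches. For GLI1 these were NCKAP1L, RPAIN and NRDC (all r = 0.98), and for PTCH1 they were TMEM229A, TPTE2 and LIPI (all r = 0.99). GAS1 was most like P2RY1, PRSS35 and NKX2-2 (all r = 0.97). BOC was most like TRAM2-AS1, TTC7A and CDK2AP1 (all r = 0.97). The other members had lower values, with 0.90 for GLI2 and RASGRF2, 0.93 for GLI3 and CCDC88A, 0.94 for SMO and DAZAP1, and 0.86 both for SUFU and ARMH1 and for HHIP and CNKSR2.

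The wider pathway was described with 78 further genes in 5 lists, of which 71 were tested. In knockdown against control libraries 33 were higher and 22 lower, or 77.5%, beside 69.5% of all genes. Their median difference was 0.11, and that of all genes was -0.01. Of the 3 ligands, IHH and DHH stayed at or below 1.27 in all libraries and were not measured. SHH reached 3.69 at most, with all group means under the floor, and is likewise reported as not measured.

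Of 6 tested genes for the ligand and its release, 5 were higher in knockdown libraries (83.3% called, beside 69.5% called and 35.5% higher of all genes), and the other was SHH, which was not measured. SCUBE3, a secreted protein that helps ligand release, averaged 11.71 ± 0.71 in knockdown libraries and 6.04 ± 0.16 in control libraries (SD, n = 5 and 4), a rise of 5.67 ± 0.34 (limma adjusted p = 2.82e-11). DISP2 rose by 2.20 ± 0.23, HHAT, which attaches palmitate to the ligand, by 1.93 ± 0.15, DISP1, the ligand exporter, by 1.55 ± 0.14, and SCUBE2 by 1.35 ± 0.21. In mut9 libraries SCUBE3 averaged 7.51 and in wild-type libraries 7.39, and in delta 22 libraries 11.72. Of the further receptor genes, the glypican gene GPC4 (-0.43 ± 0.24, limma adjusted p = 0.115) and the co-receptor gene CDON (0.33 ± 0.21, limma adjusted p = 0.165) were not called.

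Of 22 genes that act at the cilium, 6 were higher and 12 lower in knockdown libraries (81.8% called, beside 69.5% of all genes, with 35.5% higher and 34% lower), with a median difference of -0.28, beside -0.01 over all genes. EVC, which binds SMO at the base of the cilium, rose by 1.91 ± 0.14, and GPR161, a receptor that restrains the pathway, by 1.42 ± 0.08. ARRB2, a beta-arrestin, fell by 1.87 ± 0.13, and MKS1, of the ciliary transition zone, by 0.69 ± 0.07. Of 19 kinase and degradation genes, 10 were higher, while CUL1, CUL3 and ULK3 were the 3 lower. The share called, 68.4%, is near the 69.5% of all genes and is no result about the list. PRKACB, a catalytic subunit of protein kinase A, rose by 1.43 ± 0.08, the ubiquitin ligase gene MGRN1 by 0.99 ± 0.08, PRKAR1A by 0.60 ± 0.06, and the kinase gene GSK3B by 0.57 ± 0.07.

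Of 21 tested genes listed as Hedgehog targets in other settings, 12 were higher and 6 lower in knockdown libraries (85.7% called, beside 69.5% of all genes, with 35.5% higher and 34% lower). Their median difference was 0.82, beside -0.01 over all genes. The forkhead factor genes FOXL1 and FOXC2 rose by 4.75 ± 0.23 and 4.24 ± 0.23, with limma adjusted p of 1.38e-12 and 7.14e-12. FOXC2 averaged 3.32 in control libraries, just under the floor, which 2 of 4 reached. It counts as not measured in control libraries, and the size of its rise is bound to that floor. TSC22D1 rose by 2.36 ± 0.12. NKX2-2, a homeobox gene that is also a known EWS/FLI target and is counted among the Ewing markers above, fell by 2.43 ± 0.16 (limma adjusted p = 1.31e-10). It averaged 7.43 in delta 22, 9.89 in mut9, 9.54 in wild-type, 7.23 in knockdown and 9.66 in control libraries.

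**Figure D5:**
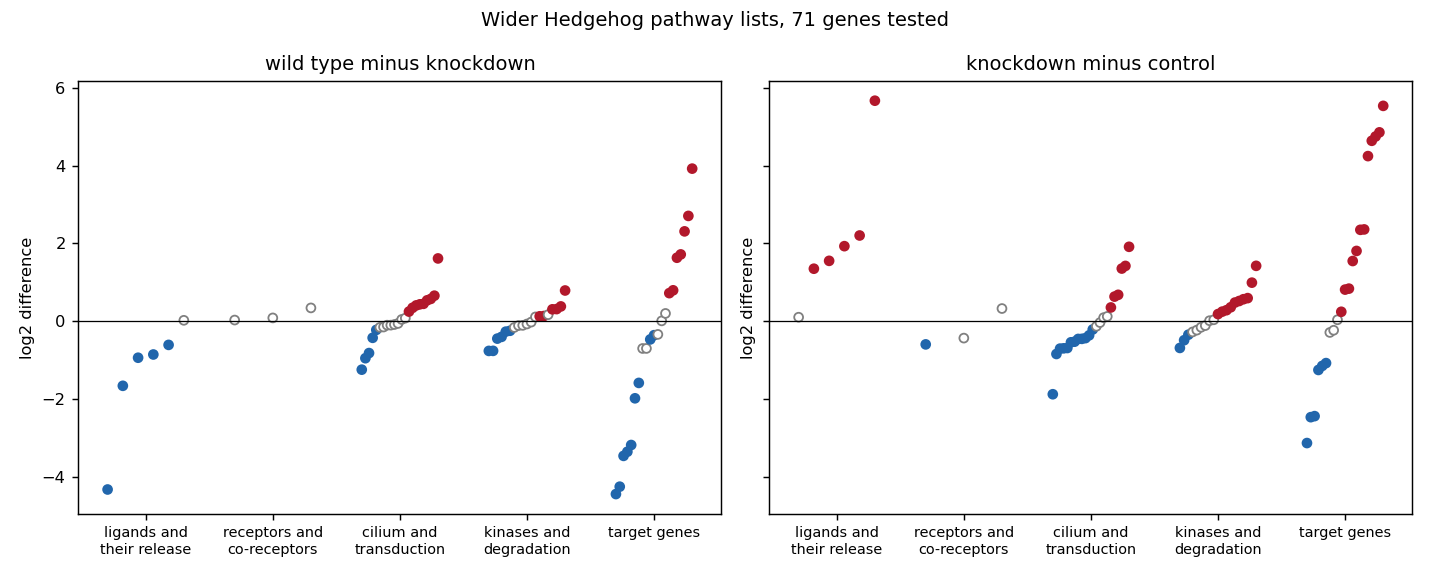
Log2 differences (y axis) of the 71 tested wider pathway genes by list, for wild type minus knockdown and for knockdown minus control, a point per gene, red for called higher, blue for called lower and open for not called. In the list of ligands and their release, SCUBE3 is highest in knockdown minus control, at 5.67, and lowest in wild type minus knockdown, at -4.32.

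In the rescue comparisons the wider lists had 22 genes higher and 25 lower in wild-type against knockdown libraries (66.2%, beside 61.8% of all genes). In mut9 against knockdown libraries 19 were higher and 26 lower (63.4%, beside 48.6%). In delta 22 against knockdown libraries 1 of 71 was called (1.41%, beside 4.5% of all genes), the nuclear receptor gene NR2F2, at 0.55 ± 0.15 (limma adjusted p = 0.0457). NR2F2 had 10.86 to 11.40 in delta 22 libraries and 10.22 to 11.13 in knockdown libraries, so the groups overlapped.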

How the data were processed

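The authors deposited 1 table of normalized log2 values per gene and library. Per the submitters' processing notes, bcl2fastq, STAR 2.5.2b, HTSeq, DESeq2 and hg19 were used. The exact transform is not given in the sources used here. If the transform draws low values together, folds of low genes are understated, which was not measured, and 17358 genes are 0 in all libraries. Library totals are not kept, so depth is unknown, and no pseudocount was added. Names came from GENCODE 29 (51996 IDs matched, 5824 not).

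Testing required a value of log2(10) or more in 3 or more libraries, which 18040 genes had. The linear model, with a mean for each group, used limma 3.58.1 with an intensity trend (R 4.3.3) on the 21 libraries, 2-sided, with Benjamini-Hochberg adjustment over all genes tested, called below 0.05. GLI1 was also tested by exact permutation over libraries (scipy 1.17.1). On simulated data 37.3% to 46.3%, 71.6% to 82.1% and 98.5% to 100% of changes of log2 0.5, 1 and 2 were recovered over the 7 comparisons. The simulation changed only a small part of the genes and drew independent noise without batches. Its settings differ from these data, so the recovery is a check of the code and not the power of these comparisons.

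The members and the 5 lists, written from general knowledge, were chosen with earlier results of these data known. The named genes are the members, FLI1 and EWSR1, per member the 3 genes with the highest Pearson r, and up to 4 genes per list with the smallest adjusted p in knockdown against control, along with genes counted singly. Some genes that this rule or the marker lists hold are not reported here. SCUBE2, CUL1, CUL3 and ULK3 were named after their values were seen. EWSR1 fell by 0.46 ± 0.07 in knockdown against control libraries (limma adjusted p = 5.17e-06).

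The replicate number is the labelled batch, which pairs libraries: deviations from group means correlated at 0.20 on average over 34 pairs of libraries that share a batch (24 above 0.1) and at -0.05 over 141 other pairs. The most alike libraries correlated at 0.9978, with an identical value in 0 of the genes tested. Each fit was repeated unfiltered (40462 genes), for genes with a mean of 100 or more (12166 genes), after quantile scaling or trimmed mean centring, with the batch as a block, on the compared groups alone, with array weights, without each library in turn and, added after the data were seen, batches 3 to 5 only.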

Additional observations from a re-analysis of the deposited data

Results flagged for a closer look

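Over 36 groups of 4 or 5 libraries examined for the 9 members, 2 libraries stood far from the others of their group. Chance gives about 1 in 20, so 2 in 36 is near the chance rate. GLI2 in delta 22 replicate 1 was 9.96, where the other delta 22 libraries had 9.14 to 9.23. SUFU in wild-type replicate 3 was 9.67, where the other wild-type libraries had 9.90 to 9.96.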

How the results depend on the processing

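Over the 9 members and 7 comparisons, GLI1, PTCH1, BOC and GAS1 kept direction and call under every alternative run in knockdown against control, wild type against knockdown, mut9 against knockdown and delta 22 against wild type, except that GLI1 and HHIP give no value with a mean of at least 100. Small differences did depend on choices. In delta 22 against wild type the count of members higher, 2, became 1 with no filter, quantile scaling, trimmed mean centring, the compared groups only and batches 3 to 5 only, which also gave 3 lower, and it ran from 1 to 3 (5 lower became 3 to 5) with a library left out. In mut9 against wild type the count higher, 1, became 0 with no filter, quantile scaling, the compared groups only and batches 3 to 5 only, and 2 with the replicate block. The count lower, 0, became 1 with quantile scaling, trimmed mean centring and array weights. Both ran from 0 to 1 with a library left out. In wild type against control the count higher, 0, became 1 with a mean of at least 100, the compared groups only and array weights, and ran from 0 to 1 with a library left out. The count lower, 3, became 4 with the replicate block and array weights and 2 with a mean of at least 100 and batches 3 to 5 only, and ran from 2 to 3 with a library left out. In mut9 against knockdown the count lower ran from 2 to 4, and in wild type against knockdown from 2 to 3.

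Directions that turned all belonged to differences that were not called. In mut9 against wild type, SMO was -0.0435 with quantile scaling, -0.025 with the replicate block and ran from -0.0026 to 0.132 with a library left out. In wild type against control, HHIP was 0.0112 with the replicate block and 0.0655 with array weights, and ran from -0.217 to 0.0698. In knockdown against control, SUFU was 0.0099 with array weights. With batches 3 to 5 only, SMO was -0.145 in wild type against knockdown and -0.015 in mut9 against knockdown. In delta 22 against knockdown, with a library left out, GLI1 ran from -0.0332 to 0.122, GLI3 from -0.119 to 0.108, HHIP from -0.164 to 0.337, BOC from -0.180 to 0.0483, GAS1 from -0.0183 to 0.200 and SUFU from -0.0234 to 0.0837. The cause was not tested.

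Over all genes, delta 22 against knockdown had 811 calls, 1292 with the replicate block, 262 with the compared groups only, 15 with batches 3 to 5 only and 383 to 857 with a library left out. In mut9 against wild type, 3390 calls became 5234 with array weights and 1745 with batches 3 to 5 only, and in wild type against control 7135 became 4588 with batches 3 to 5 only. The replicate block changed no call of a member other than those named with it above. Quantile scaling moved the median of all genes to -0.20 in knockdown against control and 0.12 in wild type against knockdown. It moved the share of higher calls to 59.5% (47.8% without it) in wild type against knockdown, 41.9% (51.9%) in delta 22 against wild type, 43.9% (59.5%) in mut9 against wild type and 42.7% (53.7%) in wild type against control. Depth is unknown, so the precision at low values, as for HHIP and SHH, cannot be given. Beside the call, GLI3 and SUFU in delta 22 against wild type rest on values near the threshold: GLI3 had adjusted p of 0.052 with trimmed mean centring and 0.61 with batches 3 to 5 only, and SUFU 0.114 with no filter and 0.388 with batches 3 to 5 only (limma).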
